A study of Mus musculus with 12 samples.

Results

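Genes of antigen presentation by the major histocompatibility complex (MHC) were followed in 2 stromal cell types sorted from mouse bone. There were 10 genes, 7 of class I presentation (B2m, H2-K1, H2-D1, Tap1, Tapbp, Psmb8 and Nlrc5) and 3 of class II presentation (H2-Aa, H2-Ab1 and Cd74), of 19937 genes that the array could name. They were found through the annotated symbols: 30 of 34760 probe sets named at least 1 of the 10, a probe set with a single symbol was preferred, and of several the one with the highest mean over the 12 arrays was read. H2-K1 and H2-D1 share all of their probe sets with each other and with the locus LOC547349, so the 10 genes gave 9 separate readings, written below with H2-K1/H2-D1 as 1 reading.

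The arrays, Affymetrix Mouse Gene 1.0 ST with 3 per group, measured endothelial cells of tumor-bearing mice, endothelial cells of tumor-free mice, osteoblasts of tumor-bearing mice and osteoblasts of tumor-free mice. All mice were female C57BL/6, with no age given, and the cells came from their long bones. Tumor-bearing mice had received 500000 EO771 cells, a mouse mammary cancer line, by injection into the heart, and the cells had grown in bone for about 2 weeks; what the tumor-free mice received is not given in the sources used here. Both cell types were gated as negative for GFP, TR119 and CD45, which is meant to remove red cells and most other blood cells; the endothelial gate then took SCA1+ CD31+ cells and the osteoblast gate SCA1- CD31- CD51+ cells. RNA of 5000 cells per array was amplified before labelling. The labels call the replicates biological but do not say whether an array holds 1 animal or several, or whether the cell types came from the same animals, so the spread between arrays may be in part technical.

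MHC class I molecules, a heavy chain paired with beta-2-microglobulin, stand on nearly all nucleated cells and show peptides of proteins made inside the cell. The peptides are cut by the proteasome, pumped into the endoplasmic reticulum by the TAP transporter and loaded with the help of tapasin. Class II molecules show peptides taken up from outside, and are best known from dendritic cells, macrophages and B cells; the invariant chain Cd74 guides them to the compartment where they are loaded. Genes of both classes carry in their promoters a shared arrangement of elements, in which an X box is bound by RFX and CREB family proteins and a Y box by NF-Y. The coactivators Nlrc5 (class I) and Ciita (class II) act on it without binding DNA themselves.

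Promoter sequences are shown for 4 of the genes and for H2-Eb1, the class II beta chain gene that is compared with them below, because class I and class II genes hold these elements in common and yet gave different results below. Each is a RefSeq window of assembly GRCm38.p6, from 250 bases before to 50 after the start site, 5′ to 3′ on the gene's strand; such windows were found for 7 of the 10 genes. Capitals mark ATTGG (the core of the Y box) and TGACG (the CRE-like core of the X box), each searched on both strands, and GAAANNGAA (a core of interferon-stimulated response elements).
H2-Aa, chr17:34287774-34288073, minus strand: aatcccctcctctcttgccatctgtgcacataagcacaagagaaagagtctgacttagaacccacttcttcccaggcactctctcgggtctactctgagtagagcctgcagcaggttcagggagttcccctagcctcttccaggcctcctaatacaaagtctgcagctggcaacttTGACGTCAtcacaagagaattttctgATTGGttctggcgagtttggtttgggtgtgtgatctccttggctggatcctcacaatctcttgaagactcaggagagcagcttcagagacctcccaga
H2-Eb1, chr17:34305617-34305916, plus strand: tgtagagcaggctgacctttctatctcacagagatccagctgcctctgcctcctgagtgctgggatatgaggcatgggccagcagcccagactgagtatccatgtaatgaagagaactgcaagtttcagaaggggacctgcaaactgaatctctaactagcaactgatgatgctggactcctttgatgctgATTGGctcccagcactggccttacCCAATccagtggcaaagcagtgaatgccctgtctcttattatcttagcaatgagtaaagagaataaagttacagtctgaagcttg
B2m, chr2:122147437-122147736, plus strand: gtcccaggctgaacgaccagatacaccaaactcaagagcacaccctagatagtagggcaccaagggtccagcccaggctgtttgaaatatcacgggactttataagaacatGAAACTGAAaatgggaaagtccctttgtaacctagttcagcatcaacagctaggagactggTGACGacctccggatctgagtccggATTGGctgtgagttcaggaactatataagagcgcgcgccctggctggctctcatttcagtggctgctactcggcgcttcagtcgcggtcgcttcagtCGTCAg
H2-K1, chr17:34000298-34000597, minus strand: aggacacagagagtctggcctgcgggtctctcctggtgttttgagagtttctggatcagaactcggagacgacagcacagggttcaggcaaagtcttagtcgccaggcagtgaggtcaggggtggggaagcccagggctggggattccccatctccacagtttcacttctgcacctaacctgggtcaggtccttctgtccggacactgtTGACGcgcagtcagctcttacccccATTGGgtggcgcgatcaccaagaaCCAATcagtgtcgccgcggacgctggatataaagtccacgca
H2-D1, chr17:35262844-35263143, plus strand: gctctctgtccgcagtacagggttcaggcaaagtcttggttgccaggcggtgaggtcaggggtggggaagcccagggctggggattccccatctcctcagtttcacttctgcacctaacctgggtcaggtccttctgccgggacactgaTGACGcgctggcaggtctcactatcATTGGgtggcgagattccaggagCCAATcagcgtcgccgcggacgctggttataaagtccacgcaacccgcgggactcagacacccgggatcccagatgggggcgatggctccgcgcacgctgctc
In H2-Aa the 8 letters in capitals are TGACG read on both strands, overlapping. The motifs are common: ATTGG stood in 37.4% of 32851 such windows in the genome, TGACG in 20.8%, both in 7.73% and GAAANNGAA in 8.56%. The distance between them was less common. The first base of ATTGG lay 26 bases after that of TGACG, on the same strand, in H2-Aa and 25 bases after it in B2m, H2-K1 and H2-D1, a spacing of 25 to 26 bases found in 54 of the 32851 windows (0.164%); that range was chosen after these windows were seen. Of the 7 genes with a window, these 4 had that spacing and Tap1, Tapbp and Psmb8 did not. The H2-Eb1 window held ATTGG on both strands and no TGACG. H2-K1 and H2-D1 shared a run of 47 identical bases, against a longest run of 8 between H2-Aa and H2-Eb1. These are matches of letters in a fixed window and not measured binding sites.

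Markers of the cell types went with the labels. All 10 endothelial markers were higher in endothelial cells in both kinds of mice and all 7 measured osteoblast markers were lower there, by a median of 4.96 and -3.86 on the log2 scale in tumor-free mice. Pecam1, which encodes the sorted CD31, had 10.7 to 11.0 log2 units in the endothelial arrays, against 5.70 to 6.90 in the osteoblast arrays. Chondrocyte markers were also higher in the osteoblast arrays, where their summed level ran from 11.3 to 13.4 on the log2 scale, against 9.33 to 9.60 in the endothelial arrays. Array medians lay between 5.95 and 6.04, and the 40th percentile of an array, used below as a mark of low signal, between 5.51 and 5.61. All 9 readings were above that mark in enough arrays to be tested; H2-Aa was above it in 11 of 12 arrays and the other 8 readings in all 12.

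Class I molecules varied little between the groups. B2m, the light chain common to class I molecules, had 12.47, 12.43 and 12.41 log2 units in endothelial cells of tumor-bearing mice, against 12.48, 12.44 and 12.41 in those of tumor-free mice. It had 12.33, 12.34 and 12.28 in osteoblasts of tumor-bearing mice, against 12.44, 12.22 and 12.35 in those of tumor-free mice. All 12 arrays lay within 0.255 log2 units. The highest value of any probe set in an array was 13.3 to 13.5. Whether differences in B2m are understated so near that top was not tested. With tumor every endothelial array was above every osteoblast array, and without tumor the cell types overlapped. The tumor difference was -0.01 in endothelial cells (95% interval -0.20 to 0.19) and -0.02 in osteoblasts (-0.21 to 0.18). Endothelial cells exceeded osteoblasts by 0.12 in tumor-bearing mice (-0.07 to 0.32, limma adjusted p = 0.489) and by 0.11 in tumor-free mice (-0.09 to 0.30, limma adjusted p = 0.538). In such bulk arrays of a sorted gate, fewer cells of a type and less RNA per cell cannot be told apart.

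The H2-K1/H2-D1 reading, for the classical class I heavy chains, came from a probe set that names both genes and LOC547349, so it cannot be assigned to any single one of them. It had 10.89, 10.94 and 11.20 log2 units in endothelial cells of tumor-bearing mice, against 10.97, 11.00 and 10.80 in those of tumor-free mice. In osteoblasts it had 10.65, 10.74 and 10.72 in tumor-bearing mice, against 10.78, 10.69 and 10.73 in tumor-free mice. Every endothelial array was above every osteoblast array, by small steps. The difference of the means was 0.30 in tumor-bearing mice (0.07 to 0.54, limma adjusted p = 0.14) and 0.19 in tumor-free mice (-0.04 to 0.43, limma adjusted p = 0.352), neither past the threshold of an adjusted p of 0.05. Tumor differences were 0.08 in endothelial cells (-0.15 to 0.32) and -0.03 in osteoblasts (-0.26 to 0.21). The other probe set that names both genes differed between endothelial cells and osteoblasts by 0.18 in tumor-bearing mice (-0.16 to 0.52) and by 0.09 in tumor-free mice (-0.25 to 0.43), and its groups overlapped. These probe sets were tested among 22714 probe sets rather than among genes; in that fit 6.8% of probe sets passed between the cell types in tumor-bearing mice and 8.42% in tumor-free mice, while 0.0484% passed for tumor in endothelial cells, 0.0044% for tumor in osteoblasts and 0% for the difference between these tumor effects.

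**Figure D1:**
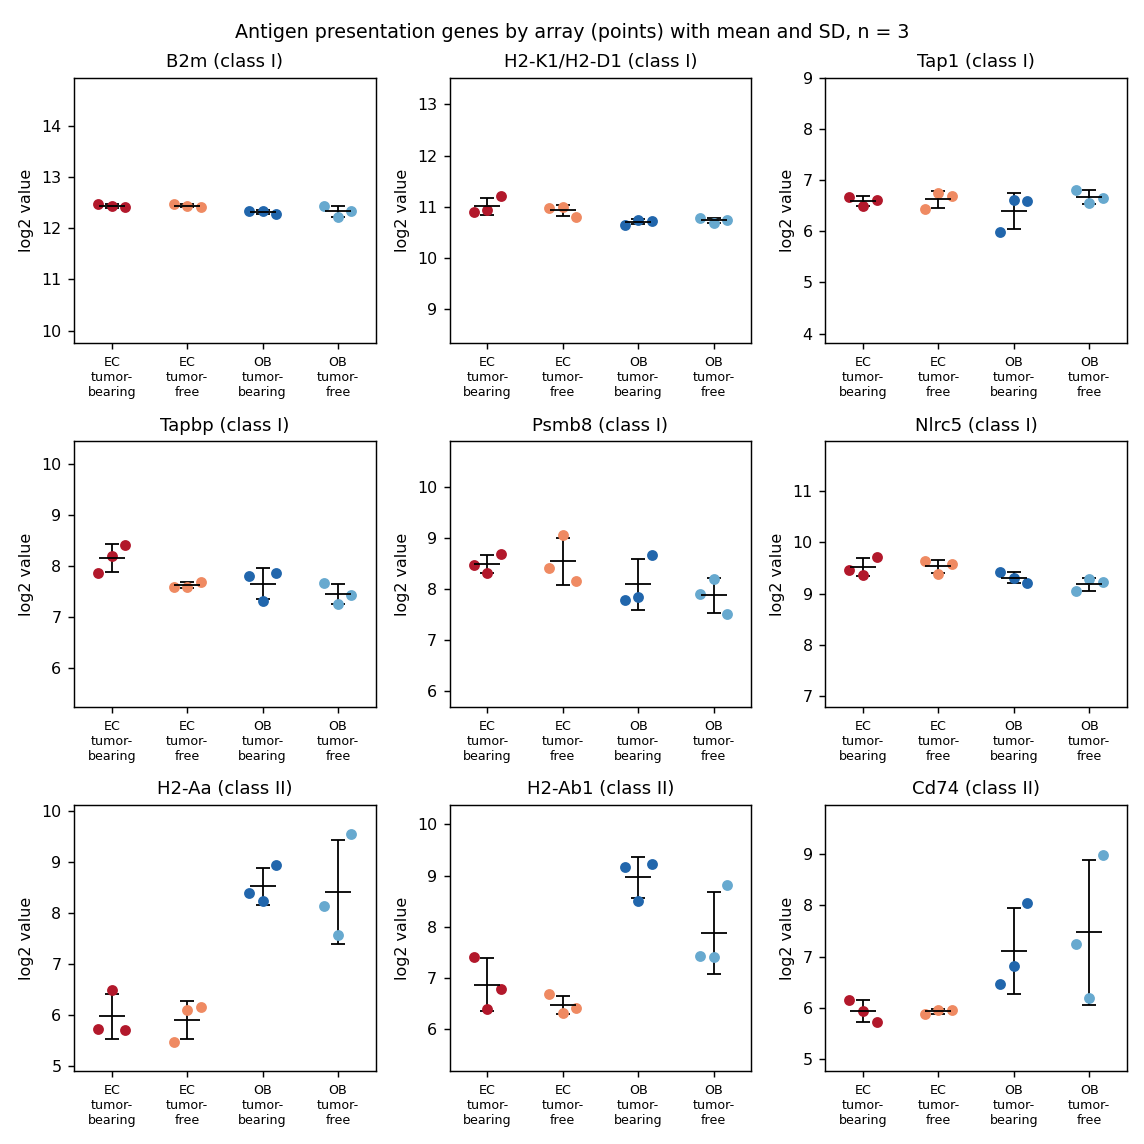
Log2 values of the 9 readings by array. Each panel is 1 reading; points are the 3 arrays of a group, the bar is the mean and the whiskers are the SD (EC, endothelial cells; OB, osteoblasts). All vertical axes span 5.2 log2 units but start at different levels. B2m and H2-K1/H2-D1 stay within narrow bands, while H2-Aa, H2-Ab1 and Cd74 have higher means in osteoblasts and spread widely among the osteoblasts of tumor-free mice.

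Of the other class I heavy chains and relatives, 8 were tested. Hfe, whose product has a class I fold and governs iron uptake, was the one that passed: it had 6.89, 7.25 and 6.59 log2 units in endothelial cells, against 6.31, 5.86 and 5.73 in osteoblasts, of tumor-bearing mice. The difference was 0.94 (0.44 to 1.44, limma adjusted p = 0.0225), against 5.68% of all genes higher and 4.89% lower at this threshold, and it passed in 17 of the 24 alternative analyses. It did not pass without endothelial replicate 1 or 2, or osteoblast replicate 2 or 3, of tumor-bearing mice (0.77 to 0.95, limma adjusted p = 0.06 to 0.0821). In tumor-free mice the difference was 0.41 (-0.08 to 0.91) and did not pass. H2-Q2, a heavy chain gene of the Q region, differed by 0.17 (-0.13 to 0.46) in tumor-bearing and 0.20 (-0.10 to 0.49) in tumor-free mice. Of the 9 tested class I molecules, B2m included, 8 were positive and 1 negative in endothelial cells minus osteoblasts with tumor. Their median was 0.17, against 0.03 over all genes. Without tumor 7 were positive and 2 negative, with a median of 0.11, against 0.01 over all genes.

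In the supply of peptides, the readings of Tap1, Tapbp and Psmb8 did not pass in any comparison, while some of their partners were higher in endothelial cells. Tap1, a subunit of the peptide transporter, had 6.67, 6.49 and 6.61 log2 units in endothelial cells of tumor-bearing mice, against 6.43, 6.75 and 6.70 in those of tumor-free mice. In osteoblasts it had 6.00, 6.61 and 6.60 in tumor-bearing mice, against 6.82, 6.56 and 6.64 in tumor-free mice. All 4 groups overlapped apart from that first osteoblast array, the lowest of the 12. The cell types differed by 0.19 in tumor-bearing mice (-0.19 to 0.56) and by -0.05 in tumor-free mice (-0.42 to 0.33). The tumor difference was -0.04 in endothelial cells (-0.41 to 0.34) and -0.27 in osteoblasts (-0.65 to 0.11).

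Tap2, the second subunit of the transporter, did differ between the cell types. It had 7.17, 7.37 and 7.30 log2 units in endothelial cells of tumor-free mice, against 6.57, 6.81 and 6.71 in osteoblasts of tumor-free mice. The difference was 0.58 (0.31 to 0.86, limma adjusted p = 0.0114), against 7% of all genes higher and 5.38% lower in endothelial cells at this threshold in tumor-free mice. In tumor-bearing mice it was 0.39 (0.11 to 0.67, limma adjusted p = 0.0841); whether Tap2 and Tap1 differ in this was not tested. Tap1 lies on chromosome 17 beside Psmb9, and the promoter windows of these genes, read in opposite directions, share 275 bases.

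Psmb8 and Psmb9 encode catalytic subunits that replace the usual ones in the immunoproteasome, the form that cells assemble under interferon. Psmb8 had 8.48, 8.32 and 8.69 log2 units in endothelial cells of tumor-bearing mice, against 8.42, 9.06 and 8.16 in those of tumor-free mice. It had 7.78, 7.84 and 8.67 in osteoblasts of tumor-bearing mice, against 7.91, 8.21 and 7.52 in those of tumor-free mice. The arrays of a group spread over up to 0.89 log2 units, and the groups overlapped. The endothelial mean was higher by 0.40 in tumor-bearing mice (-0.25 to 1.04, limma adjusted p = 0.492) and by 0.67 in tumor-free mice (0.02 to 1.31, limma adjusted p = 0.195).

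Psmb9 had 9.85, 9.79 and 10.12 log2 units in endothelial cells, against 8.74, 8.43 and 9.52 in osteoblasts, of tumor-bearing mice. Without tumor it had 9.92, 9.74 and 9.73 in endothelial cells, against 8.70, 8.39 and 9.34 in osteoblasts. The endothelial arrays were close together and above every osteoblast array, where replicate 3 was the highest in both kinds of mice. The difference was 1.02 with tumor (limma adjusted p = 0.047) and 0.99 without (limma adjusted p = 0.0491), at the edge of the threshold: over the 24 alternatives it passed in 10 for tumor-bearing mice, with adjusted p up to 0.154, and in 8 for tumor-free mice, with adjusted p up to 0.151. Leaving out any single endothelial array ended the call in both kinds of mice, with differences of 0.92 to 1.09. So did leaving out replicate 1 of either osteoblast group, and for each kind of mice its own osteoblast replicate 2, without which the difference was 0.79 with tumor and 0.78 without tumor.

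Tapbp encodes tapasin, which holds empty class I molecules at the transporter. Its single-symbol probe set had 7.87, 8.19 and 8.41 log2 units in endothelial cells of tumor-bearing mice, against 7.60, 7.60 and 7.69 in those of tumor-free mice. It had 7.81, 7.31 and 7.86 in osteoblasts of tumor-bearing mice, against 7.66, 7.26 and 7.43 in those of tumor-free mice. The endothelial groups did not overlap, while the osteoblast groups did. The tumor difference was 0.53 in endothelial cells (0.13 to 0.93), with an unadjusted p of 0.0148 and a limma adjusted p of 0.925 over all genes. In osteoblasts it was 0.20 (-0.20 to 0.61), and the difference between these effects was 0.33 (-0.24 to 0.89, limma adjusted p = 0.865). A pair of brighter probe sets that carry Tapbp together with the ribosomal gene Rps3a1 differed between the endothelial groups by 0.12 (-0.07 to 0.31) and 0.10 (-0.09 to 0.28); which of their genes they read is not known.

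The list of genes for the supply and loading of class I peptides held 19 tested genes, 16 of them besides Tap1, Tapbp and Psmb8. In tumor-bearing mice, where 5.68% of all genes were higher and 4.89% lower in endothelial cells, 2 of the 19 were higher (Psmb9 and Erap1) and 2 lower (Calr and Hspa5), with a median of 0.11, against 0.03 over all genes. In tumor-free mice 3 of the 19 were higher and 0 lower in endothelial cells (Tap2, Psmb9 and Psme1), with a median difference of 0.08, against 0.01 over all genes. Psme1, a subunit of the proteasome activator PA28, differed there by 0.80 (0.43 to 1.16, limma adjusted p = 0.00902), a call that every alternative kept except the one that asked for a fold change of at least 2.

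Erap1, which trims peptides inside the endoplasmic reticulum, had 7.53, 7.49 and 7.20 log2 units in endothelial cells, against 6.39, 6.10 and 6.37 in osteoblasts, of tumor-bearing mice. The difference was 1.12 (limma adjusted p = 0.0327; 0.94 and 0.0621 in tumor-free mice), and it passed in 16 of 24 alternatives. Leaving out any single array of tumor-bearing mice ended that call, with adjusted p up to 0.105, and leaving out endothelial replicate 3 of tumor-free mice gave one in tumor-free mice (1.23, limma adjusted p = 0.0173). Calr and Hspa5, chaperones of the endoplasmic reticulum that serve many proteins, were lower in endothelial cells by 0.39 and 0.44 on the log2 scale (limma adjusted p = 0.0492 and 0.0439) and passed in 4 and 7 of the 24 alternatives. The call of Calr was lost without any single one of the 12 arrays (adjusted p up to 0.155). That of Hspa5 was lost without any single one except endothelial replicate 2 of tumor-bearing mice (adjusted p up to 0.135).

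Nlrc5, the coactivator of class I genes, was read from the brightest of its 19 probe sets. That probe set had 9.46, 9.37 and 9.71 log2 units in endothelial cells of tumor-bearing mice, against 9.63, 9.39 and 9.58 in those of tumor-free mice. It had 9.43, 9.31 and 9.20 in osteoblasts of tumor-bearing mice, against 9.04, 9.28 and 9.22 in those of tumor-free mice. The endothelial arrays were above the osteoblast arrays in tumor-free mice and overlapped them in tumor-bearing mice. The difference between the cell types was 0.20 in tumor-bearing mice (-0.08 to 0.48, limma adjusted p = 0.405) and 0.35 in tumor-free mice (0.08 to 0.63, limma adjusted p = 0.104). The tumor difference was -0.02 in endothelial cells (-0.30 to 0.25) and 0.13 in osteoblasts (-0.15 to 0.41).

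The Nlrc5 probe sets did not all go the same way. Of the 19, 16 passed the filter on low signal. Between the cell types they differed by -0.35 to 0.79 in tumor-bearing mice (median 0.08, 11 positive and 5 negative) and by -1.37 to 0.35 in tumor-free mice (median -0.09, 7 positive and 9 negative). The 0.35 of the brightest probe set was thus the highest of the 16 in tumor-free mice. None passed in either kind of mice, with 0 and 2 at an unadjusted p under 0.05 in limma. Their tumor differences ran from -0.28 to 1.33 in endothelial cells, 7 of them positive and 9 negative, and from -1.12 to 0.66 in osteoblasts, again 7 positive and 9 negative; 0 passed in either cell type, with 1 and 0 at an unadjusted p under 0.05 in limma. The probe set with the highest endothelial difference had 7.68, 7.43 and 8.16 log2 units in tumor-bearing mice, against 6.53, 6.28 and 6.47 in tumor-free mice, and those groups did not overlap (1.33, 0.35 to 2.31, limma adjusted p = 0.804 over all probe sets). A second probe set differed by 1.04 in endothelial cells (-0.29 to 2.38) and by -1.12 in osteoblasts (-2.45 to 0.21); it also gave the -1.37 between the cell types (-2.71 to -0.04, limma adjusted p = 0.228). Both were picked out after their values were seen, and the remaining 14 had endothelial differences between -0.28 and 0.26.

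**Figure D2:**
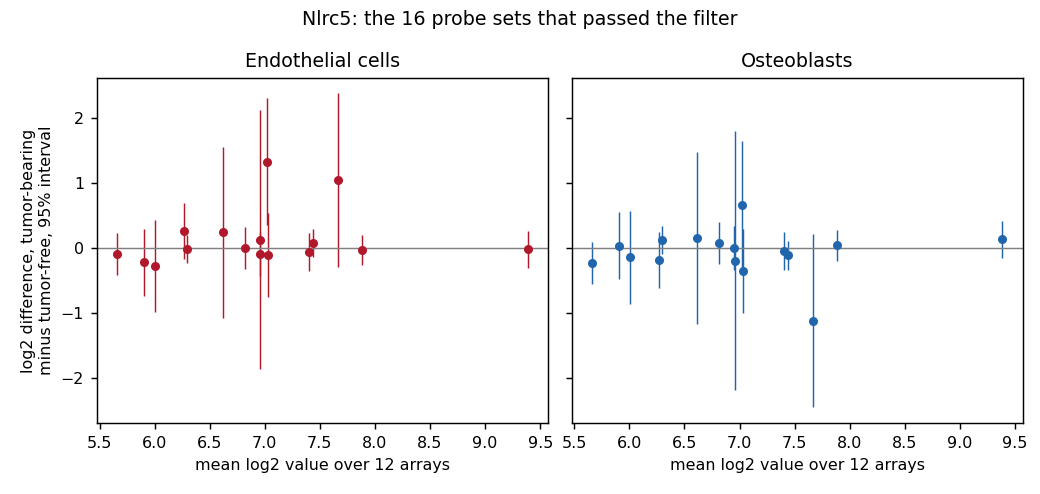
Tumor difference of each of the 16 Nlrc5 probe sets that passed the filter, in endothelial cells (left) and osteoblasts (right). The horizontal axis is the probe set's mean log2 value over 12 arrays, the vertical axis its log2 difference of tumor-bearing minus tumor-free with the 95% interval. Most points lie near 0 and a few wide intervals lie away from it, among them the endothelial 1.33 and the osteoblast -1.12.

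Of 15 tested transcription factors and cofactors of MHC genes, Nlrc5 included, 1 passed in both comparisons of the cell types, a share near that of all genes (5.68% higher with tumor and 7% without), and in the tumor comparisons 0 did (0 in endothelial cells and 1 in osteoblasts at an unadjusted p under 0.05 in limma). Irf8, an interferon regulatory factor best known from myeloid and B cells, had 7.77, 7.47 and 7.79 log2 units in endothelial cells, against 6.76, 6.46 and 6.63 in osteoblasts, of tumor-bearing mice. In tumor-free mice it had 8.17, 7.70 and 7.87 in endothelial cells, against 6.41, 6.86 and 6.88 in osteoblasts. The groups were well apart, by 1.06 in tumor-bearing mice (limma adjusted p = 0.00252) and by 1.20 in tumor-free mice (limma adjusted p = 0.00101), and all 24 alternatives kept both calls.

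Ciita, the coactivator that class II transcription requires, stood between 5.91 and 6.28 log2 units in all 12 arrays, close to the array medians. It differed between the cell types by 0.03 in tumor-bearing mice (-0.21 to 0.27) and by -0.05 in tumor-free mice (-0.28 to 0.19). Rfx5, a DNA-binding subunit of the RFX complex, differed by 0.10 (-0.19 to 0.40) and 0.15 (-0.14 to 0.44) in these comparisons. Irf1, which interferon gamma induces, differed by -0.30 (-0.78 to 0.18) and 0.06 (-0.42 to 0.54). A probe set near the array median may carry little signal of its gene, so these narrow intervals bound the reading more than the transcript.

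Among the 10 genes, those that passed between the cell types were class II genes, lower in endothelial cells. Of the 3 class II readings, 2 were lower there in both kinds of mice (H2-Aa and H2-Ab1) and 0 were higher, against 4.89% of all genes lower and 5.68% higher with tumor, and 5.38% lower and 7% higher without. Of the 5 class I readings tested among genes 0 passed in either direction, and H2-K1/H2-D1 did not pass among probe sets. H2-Aa, the alpha chain of the class II molecule I-A, had 5.73, 6.48 and 5.71 log2 units in endothelial cells, against 8.39, 8.23 and 8.93 in osteoblasts, of tumor-bearing mice. In tumor-free mice it had 5.47, 6.09 and 6.15 in endothelial cells, against 8.13, 7.57 and 9.54 in osteoblasts. Every osteoblast array was above every endothelial array, and the osteoblasts of tumor-free mice spread over 1.98 log2 units. H2-Aa was 5.84-fold lower in endothelial cells of tumor-bearing mice (log2 difference -2.54, -3.54 to -1.55, limma adjusted p = 0.00413). It was 5.70-fold lower in those of tumor-free mice (-2.51, -3.50 to -1.52, limma adjusted p = 0.00392). All 24 alternatives kept both calls.

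H2-Ab1, the beta chain of I-A, had 7.41, 6.38 and 6.79 log2 units in endothelial cells, against 9.17, 8.50 and 9.23 in osteoblasts, of tumor-bearing mice. Without tumor it had 6.67, 6.32 and 6.41 in endothelial cells, against 7.42, 7.40 and 8.81 in osteoblasts. The cell types did not overlap within either kind of mice, and osteoblast replicate 3 of tumor-free mice stood well above the other two. The difference was -2.10 in tumor-bearing mice (-2.96 to -1.25, limma adjusted p = 0.00528), a call that all 24 alternatives kept.

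In tumor-free mice the difference in H2-Ab1 was -1.41 (-2.27 to -0.55, limma adjusted p = 0.0381), and 14 of 24 alternatives kept this call. Without osteoblast replicate 3 of tumor-free mice it was -0.94 (limma adjusted p = 0.0806). The call also ended without endothelial replicate 1, 2 or 3 of tumor-free mice (-1.51, -1.34 and -1.38, limma adjusted p = 0.0745, 0.117 and 0.105). It ended as well, at an unchanged -1.41, without endothelial replicate 3 (limma adjusted p = 0.055) or osteoblast replicate 1 (limma adjusted p = 0.0519) of tumor-bearing mice, which enter only the estimate of spread. The difference between cell types in tumor-bearing mice minus that in tumor-free mice was -0.69 (-1.91 to 0.52, limma adjusted p = 0.865), so a larger gap with tumor was not shown.

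Cd74, the invariant chain, had 6.15, 5.94 and 5.72 log2 units in endothelial cells, against 6.46, 6.81 and 8.05 in osteoblasts, of tumor-bearing mice. In tumor-free mice it had 5.88, 5.94 and 5.96 in endothelial cells, against 7.25, 6.18 and 8.99 in osteoblasts. The endothelial arrays were all near 6 and below every osteoblast array, while the osteoblast arrays of a group differed among themselves by up to 2.81 log2 units. The difference was -1.17 in tumor-bearing mice (-2.50 to 0.16, limma adjusted p = 0.288) and -1.55 in tumor-free mice (-2.88 to -0.22, limma adjusted p = 0.139). Neither passed, except that the second did without osteoblast replicate 2 of tumor-free mice, the lowest array of its group (-2.20, limma adjusted p = 0.0249).

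H2-Eb1, the beta chain of the class II molecule I-E, was also lower in endothelial cells. Mice of the C57BL/6 strain make no I-E protein, owing to a defect in the alpha chain gene. It had 6.44, 6.88 and 6.62 log2 units in endothelial cells, against 7.88, 7.86 and 8.13 in osteoblasts, of tumor-bearing mice. Without tumor it had 6.62, 6.55 and 6.79 in endothelial cells, against 8.05, 6.98 and 8.61 in osteoblasts. The difference was -1.31 in tumor-bearing mice (limma adjusted p = 0.0272; 19 of 24 alternatives) and -1.23 in tumor-free mice (limma adjusted p = 0.0325; 16 of 24), and -0.86 (limma adjusted p = 0.0788) without osteoblast replicate 3 of tumor-free mice. The call in tumor-free mice also ended without osteoblast replicate 1 or any single endothelial array of these mice (-1.29 to -1.14). The call in tumor-bearing mice ended without endothelial replicate 1 or 3 or any single osteoblast array of these mice (-1.36 to -1.20).

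Over the list of class II molecules and loading, 15 genes were tested, and 5 were lower and 2 higher in endothelial cells of tumor-bearing mice, with a median difference of -0.18, against 4.89% lower, 5.68% higher and a median of 0.03 over all genes. In tumor-free mice 6 were lower and 3 higher, with a median of -0.45, against 5.38% lower, 7% higher and a median of 0.01 over all genes. Besides the chains named above, those lower were Ctss, Ifi30 and Ctsh. Ctss, a protease that cuts the invariant chain, had 6.46, 6.21 and 5.83 log2 units in endothelial cells, against 8.95, 8.67 and 9.15 in osteoblasts, of tumor-bearing mice (-2.76, limma adjusted p = 0.000744). It had 6.09, 5.84 and 6.37 in endothelial cells, against 7.79, 6.79 and 8.57 in osteoblasts, of tumor-free mice (-1.62, limma adjusted p = 0.0163; 21 of 24 alternatives). That last call ended without endothelial replicate 1 or 2 of tumor-free mice (limma adjusted p = 0.0537 and 0.0652).

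Ifi30, a thiol reductase of the loading compartment, differed by -1.18 in tumor-bearing mice (limma adjusted p = 0.00206) and by -0.74 in tumor-free mice (limma adjusted p = 0.0241). The second of these ended without endothelial replicate 2 or 3 or osteoblast replicate 2 of tumor-free mice (limma adjusted p = 0.0642, 0.0925 and 0.0827). Ctsh, a lysosomal aminopeptidase, differed by -0.90 (limma adjusted p = 0.0619) and -1.47 (limma adjusted p = 0.00463). The first of these passed in 4 of 24 alternatives, among them without osteoblast replicate 2 of tumor-free mice (limma adjusted p = 0.0115). The proteases Ctsl and Lgmn, which lysosomes of most tissues contain, went the other way: they were higher in endothelial cells by 1.15 and 1.53 in tumor-bearing mice (limma adjusted p = 0.00139 and 0.00261) and by 1.60 and 1.25 in tumor-free mice (limma adjusted p = 0.000137 and 0.00744). Ctsb, another lysosomal protease, was higher in tumor-free mice (0.94, limma adjusted p = 0.0239), but not without osteoblast replicate 2 or any single endothelial array of these mice (0.67 to 1.01, limma adjusted p = 0.05 to 0.0845). H2-DMa, part of the molecule that exchanges peptides on class II, stood near the arrays' 40th percentile and differed by -0.18 (-0.71 to 0.35) and -0.45 (-0.98 to 0.08).

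**Figure D3:**
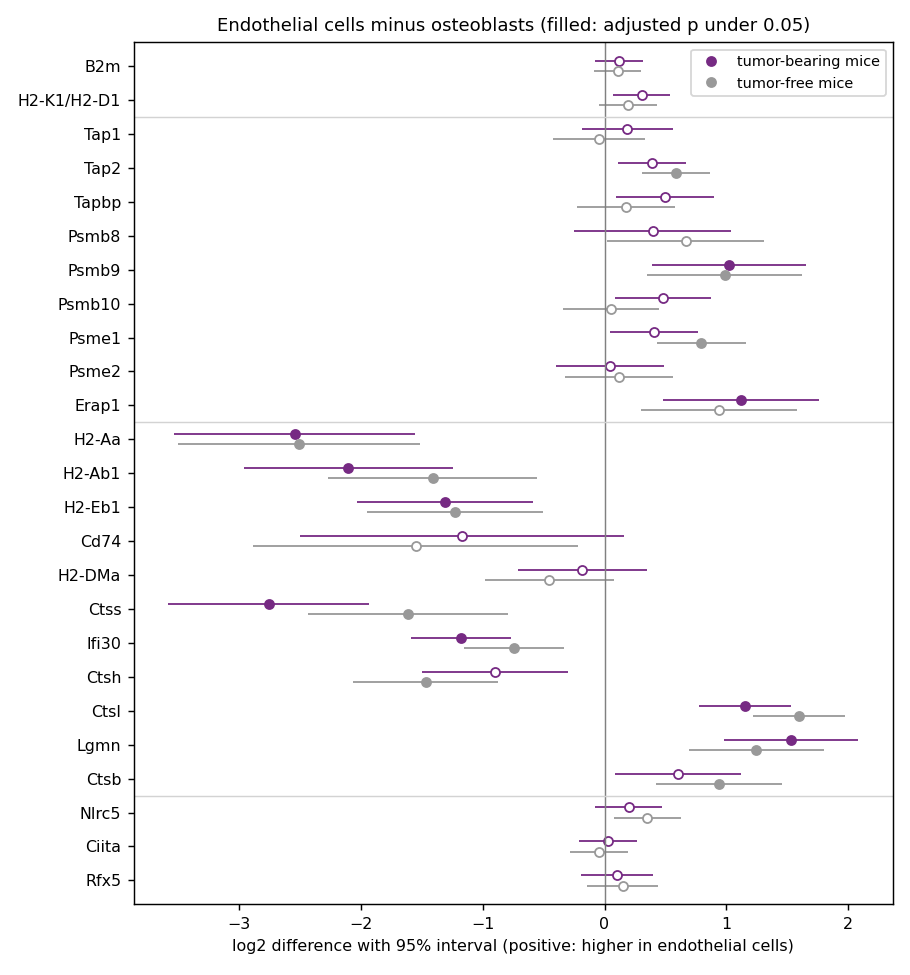
Log2 difference of endothelial cells minus osteoblasts with 95% intervals, in tumor-bearing and tumor-free mice; filled points have an adjusted p under 0.05. From the top the blocks hold class I molecules, peptide supply, class II molecules and loading, and transcription factors. B2m and H2-K1/H2-D1 lie near 0, Psmb9 near 1, and the class II chains, Ctss and Ifi30 on the negative side, with H2-Aa at -2.54 and -2.51.

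Some genes of macrophages and of blood cells at large were high in the same osteoblast arrays as the class II genes. C1qa, a complement gene of macrophages, had 5.85, 5.99 and 6.04 log2 units in endothelial cells, against 7.33, 6.94 and 7.38 in osteoblasts, of tumor-bearing mice. In tumor-free mice it had 5.75, 6.03 and 6.19 in endothelial cells, against 6.64, 6.27 and 8.18 in osteoblasts. The highest array was osteoblast replicate 3 of tumor-free mice, which was also the highest for H2-Aa, H2-Eb1 and Cd74. H2-Ab1, at 9.23, and Ctss were instead highest in osteoblast replicate 3 of tumor-bearing mice. C1qc differed by -1.44 with tumor (limma adjusted p = 0.135) and by -1.98 without tumor (limma adjusted p = 0.0376). Ptprc, which encodes the CD45 excluded by the gate, had 5.63, 5.52 and 7.28 in osteoblasts of tumor-bearing mice, against 5.83, 5.10 and 6.31 in those of tumor-free mice, and 5.18 to 5.89 in the endothelial arrays. Both replicates 3 of the osteoblasts were its highest arrays.

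The whole marker lists gave no single order. Of 8 tested markers of monocytes and macrophages, 2 were higher and 0 lower in endothelial cells of tumor-bearing mice, and 2 were higher and 1 lower in those of tumor-free mice. Of all genes, 5.68% were higher and 4.89% lower with tumor, and 7% and 5.38% without. The higher ones were Mrc1, by 3.70 and 4.21, and Vcam1, by 1.37 and 1.06, in these comparisons; sinusoidal endothelium is known to express both. The summed level of 11 measured macrophage markers, a sum of linear values, was 12.6 to 13.1 log2 units in endothelial arrays, against 10.9 to 11.9 in osteoblast arrays. Its brightest markers were Vcam1 and Mrc1, with means of 11.2 and 9.41 over 12 arrays, against 7.23 for the next, Cd68. By sign alone, 6 of the 8 tested were negative and 2 positive in endothelial cells minus osteoblasts with tumor. Their median was -0.52, against 0.03 over all genes. Without tumor 5 were negative and 3 positive, with a median of -0.33, against 0.01 over all genes. Of the 11, 4 were at or under the 40th percentile in all arrays of each endothelial group, against 2 in each osteoblast group. The 10 blood cell markers summed to 9.59 to 10.04 in endothelial arrays, against 9.04 to 10.23 in osteoblast arrays, with 0 of 8 tested past the threshold in either kind of mice. Lcp1 was the brightest of them, with a mean of 7.96 over 12 arrays, against 6.08 for the next, Ikzf1. By sign, 6 of the 8 were negative and 2 positive in endothelial cells minus osteoblasts in both kinds of mice. The medians were -0.16 with tumor and -0.26 without, with 2 and 1 at an unadjusted p under 0.05 in limma.

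B cell markers were flat, with 9 of them summing to 8.72 to 8.87 in endothelial arrays, against 8.72 to 9.0 in osteoblast arrays. In each group 3 or 4 of the 9 were at or under the 40th percentile in all arrays. Dendritic cell markers summed to 9.94 to 10.24, against 9.75 to 10.24, with 4 or 5 of the 10 that dim in each group. Bst2 was the brightest of these, with a mean of 9.03 over 12 arrays, against 7.11 for the next, Ccr7. Sums of such dim markers cannot show that these cells were absent. The neutrophil markers were highest, at 13.7, in osteoblast replicate 3 of tumor-free mice, against 10.4 to 12.3 in all other arrays. Of 8 erythroid markers 5 were measured, and they summed to 8.74 to 9.17 in the endothelial arrays, against 8.45 to 8.95 in osteoblasts of tumor-bearing mice and 9.30 to 9.83 in those of tumor-free mice, with replicate 3 of tumor-free mice again the highest. In tumor-free mice 2 of these 5 were lower in endothelial cells (Slc4a1 and Ermap) and 0 higher, and in tumor-bearing mice 0 passed (1 at an unadjusted p under 0.05 in limma).

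Chondrocyte markers ran the other way across the osteoblast arrays. The 8 of them summed to 12.9, 13.1 and 11.3 log2 units in osteoblasts of tumor-bearing mice, against 11.8, 13.4 and 11.4 in those of tumor-free mice, and to 9.33 to 9.60 in the endothelial arrays. Both replicates 3, where Cd74 was highest in each group, had the lowest sums, and replicate 2 of tumor-free mice, the lowest osteoblast array for H2-Aa and Cd74, had the highest. The part of any of these cells in the class II result was not tested. Without replicate 3 of both osteoblast groups, H2-Aa differed by -2.34 in tumor-bearing mice (limma adjusted p = 0.00137) and by -1.94 in tumor-free mice (limma adjusted p = 0.00366), and H2-Ab1 by -1.97 (limma adjusted p = 0.00341) and -0.94 (limma adjusted p = 0.0819). Cd74 then differed by -0.70 and -0.79. Leaving out these arrays does not test the part of those cells, since C1qa exceeded its endothelial values in every osteoblast array that was kept.

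**Figure D4:**
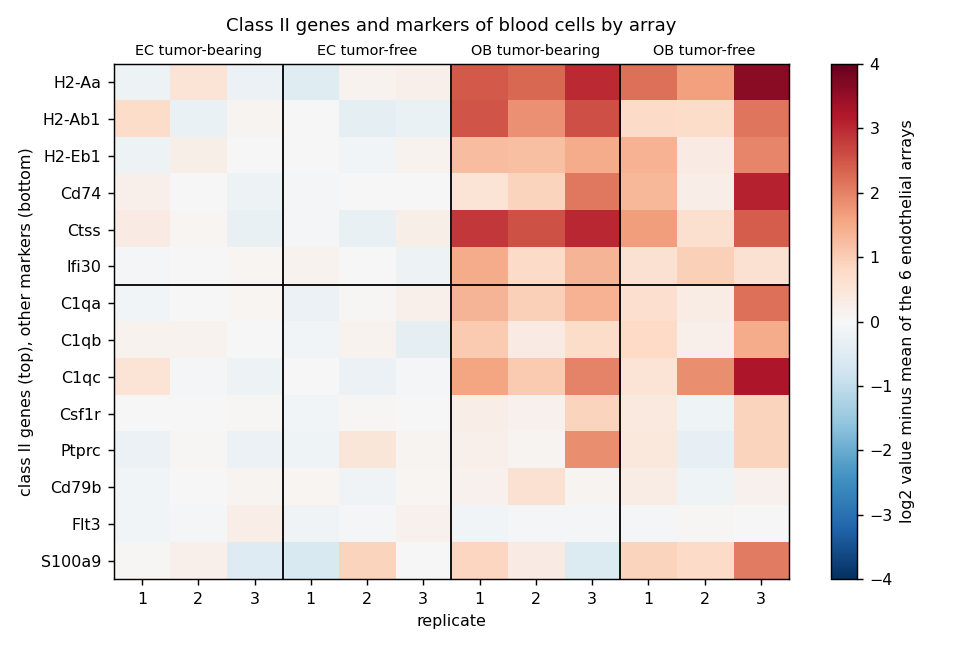
Log2 values of 6 genes of class II molecules and loading (top) and 8 markers of blood cells (bottom) in each array. They are given as the difference from the mean of the 6 endothelial arrays. Columns are replicates within the 4 groups (EC, endothelial cells, and OB, osteoblasts). The markers were chosen for display after their values were seen. Red in the osteoblast columns is deepest in replicate 3 of tumor-free mice for H2-Aa, Cd74 and C1qc, while Cd79b and Flt3, of B cells and of dendritic cells and their precursors, stay pale.

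Bone tumors were set against none in each cell type, which asks whether metastasis changes the presentation machinery of these stromal cells. None of the 9 readings passed in endothelial cells, in osteoblasts or for the difference between these effects. Of all genes, 0.0141% passed in endothelial cells, 0.0563% in osteoblasts and 0.0281% for the difference, and 653, 1390 and 920 of 14217 genes had an unadjusted p under 0.05 in limma. Against such shares, 0 of 9 is no result about these genes. In the list of class I peptide supply 0 of 19 passed in either cell type (2 in each at an unadjusted p under 0.05 in limma), and in the class II list 0 of 15 did (0 in endothelial cells and 5 in osteoblasts). The arrays of tumor-bearing and tumor-free mice did not overlap for 1 of the 9 readings in endothelial cells (Tapbp) and for 0 in osteoblasts, against 10.5% and 14.5% of all genes.

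What the tumor comparison leaves room for differs by reading. For B2m, H2-K1/H2-D1, Tap1 and Nlrc5 the intervals stayed within 0.65 log2 units of 0 in both cell types. For Nlrc5 this holds for the brightest probe set. Others reached further, among them 1 with 0.35 to 2.31 in endothelial cells and 1 with -2.45 to 0.21 in osteoblasts. For Psmb8 the intervals ran from -0.70 to 0.59 in endothelial cells and from -0.43 to 0.86 in osteoblasts. For the class II readings they were wider. H2-Aa differed by 0.07 in endothelial cells (-0.92 to 1.06) and by 0.10 in osteoblasts (-0.89 to 1.10). Cd74 differed by 0.01 in endothelial cells (-1.32 to 1.35) and by -0.37 in osteoblasts (-1.70 to 0.97), so that a 2.0-fold change in either direction is within the endothelial interval.

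H2-Ab1 had the largest tumor difference of the 9 readings. In osteoblasts, with the values given above, it was 1.09 higher in tumor-bearing mice (0.23 to 1.95), with an unadjusted p of 0.0178 and a limma adjusted p of 0.392, and replicate 3 of tumor-free mice lay above the lowest array of tumor-bearing mice. In endothelial cells the difference was 0.40 (-0.46 to 1.25). Ctss, at 8.95, 8.67 and 9.15 log2 units in osteoblasts of tumor-bearing mice, against 7.79, 6.79 and 8.57 in those of tumor-free mice, differed by 1.21 (0.38 to 2.03, limma adjusted p = 0.342). H2-Eb1 differed there by 0.08 (-0.64 to 0.80). Some lists of blood cell markers also moved in this comparison of osteoblasts. All 9 tested neutrophil markers were negative with tumor, with a median of -1.03, and so were all 5 erythroid markers, with a median of -0.52. In either list 0 passed (1 and 3 at an unadjusted p under 0.05 in limma). Other lists did not move as a whole. Of the 8 tested general blood cell markers 4 were positive and 4 negative (median 0.10). The 8 tested macrophage markers also split into 4 and 4 (median 0.03). B cell and dendritic cell markers each had 1 positive and 5 negative (medians -0.06 and -0.14). The part of any of these cells in the osteoblast tumor values was not tested.

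**Figure D5:**
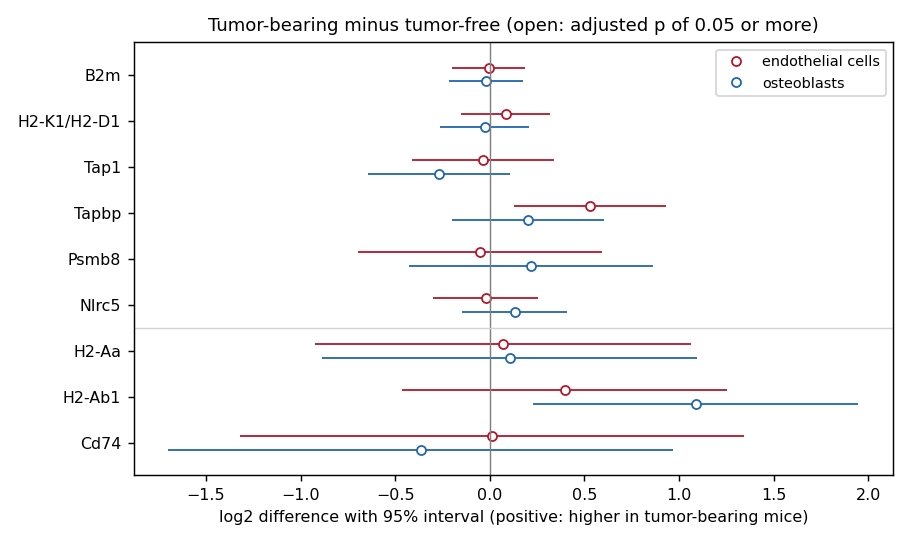
Log2 difference of tumor-bearing minus tumor-free mice with 95% intervals for the 9 readings, in endothelial cells and osteoblasts. All points are open, since no adjusted p was under 0.05. The intervals of Tapbp in endothelial cells (0.13 to 0.93) and of H2-Ab1 in osteoblasts (0.23 to 1.95) leave out 0 before adjustment over all genes.

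Whether interferon gamma acted on the MHC genes in these cells was not tested. Its pathway was followed through 22 tested genes. They hold parts of the signal, such as Ifng, its receptor genes and the kinase genes Jak1 and Jak2, besides genes that respond to it. Jak1 was higher in endothelial cells in both kinds of mice and Jak2 in tumor-free mice, each in all 24 alternatives. In tumor-bearing mice 7 of the 22 were higher and 0 lower in endothelial cells, with a median difference of 0.40. Over all genes 5.68% were higher and 4.89% lower, with a median of 0.03. In tumor-free mice 9 were higher and 0 lower, with a median of 0.84, against 7% higher, 5.38% lower and a median of 0.01. Some of these calls were near the threshold: Gbp4 in tumor-bearing mice passed in 14 of 24 alternatives, and Gbp7 and Gbp5 in tumor-free mice passed in 11 of 24 and 6 of 23. Ubd, which encodes a ubiquitin-like modifier, had 11.40, 11.03 and 10.89 log2 units in endothelial cells, against 4.65, 6.57 and 5.18 in osteoblasts, of tumor-bearing mice. It had 11.37, 11.20 and 11.21, against 5.01, 5.38 and 5.51, in tumor-free mice. It was higher in endothelial cells in both kinds of mice (5.64, limma adjusted p = 5.79e-06, with tumor and 5.96, limma adjusted p = 3.56e-06, without). In 5 of the 6 osteoblast arrays the value was under that array's 40th percentile, so the size of the difference is uncertain. Gbp9 and Iigp1, which encode interferon-inducible GTPases, were higher by 2.33 and 1.99 in tumor-bearing mice (limma adjusted p = 0.000574 and 0.00261) and by 1.95 and 2.64 in tumor-free mice (limma adjusted p = 0.00163 and 0.000367).

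The chemokine gene Cxcl9 was higher in endothelial cells by 1.68 in tumor-bearing mice (limma adjusted p = 0.00614) and by 2.31 in tumor-free mice (limma adjusted p = 0.000758). Its neighbour Cxcl10 had 9.69, 9.23 and 9.46 log2 units in endothelial cells, against 9.03, 9.16 and 9.39 in osteoblasts, of tumor-bearing mice. Without tumor it had 9.87, 8.39 and 9.86, against 7.73, 7.38 and 7.64. The osteoblast arrays of tumor-bearing mice were all above those of tumor-free mice. That tumor difference was 1.61 (0.86 to 2.36, limma adjusted p = 0.178) and passed only without endothelial replicate 2 of tumor-free mice, which enters only the spread (limma adjusted p = 0.0129). In the tumor comparisons 0 of the 22 genes passed, with 2 in endothelial cells and 8 in osteoblasts at an unadjusted p under 0.05 in limma, and medians of 0.15 and 0.29.

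The list of the constitutive proteasome held 14 tested subunits. Only the catalytic ones are replaced in the immunoproteasome, so most of the list is common to both forms. In osteoblasts the 14 differed by a median of 0.27 with tumor, all 14 positive and 0 past the threshold (2 at an unadjusted p under 0.05 in limma). Over all genes the median was -0.02, with 46.7% positive. This is the comparison in which the neutrophil and erythroid markers were all negative. In endothelial cells 6 were positive and 8 negative, with a median of -0.10, and 0 passed (0 at an unadjusted p under 0.05 in limma). Among 7 tested genes of costimulation and coinhibition, Icam1, an adhesion molecule that also binds T cells, was the 1 that passed between the cell types in both kinds of mice, against 5.68% of all genes higher with tumor and 7% without. It was higher in endothelial cells by 0.94 in tumor-bearing mice (limma adjusted p = 0.00684) and by 1.45 in tumor-free mice (limma adjusted p = 0.000403). Cd40, a receptor through which T cells act on presenting cells, differed by 0.48 (0.07 to 0.89, limma adjusted p = 0.141) and 0.22 (-0.19 to 0.63).

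The genes whose values followed 2 of the members most closely are given as a description over 12 arrays, which fall into 2 cell types. For Tap1 these were 1110017D15Rik, Trir, Miip, Ring1 and Acin1, with Pearson correlations between 0.855 and 0.881, and for all 5 osteoblast replicate 1 of tumor-bearing mice was the lowest array, as it was for Tap1. Ring1 is a Polycomb gene. Tap1 had correlations of 0.24 with B2m, 0.27 with Psmb8, -0.13 with Tapbp and -0.25 with Nlrc5 over the same arrays. For Cd74 they were Csf1r, Cd52, Syk, Csrnp3 and Aptx, between 0.928 and 0.941. The correlations of these 5 ran from 0.917 to 0.972 within the 6 osteoblast arrays, and from -0.77 to 0.60 within the 6 endothelial arrays. Csf1r, Cd52, Syk and Csrnp3 exceeded the 40th percentile in 4, 3, 6 and 5 of 12 arrays, all of osteoblasts. They thus passed the filter only through the cell type in which Cd74 was high. Csf1r encodes the receptor for macrophage colony-stimulating factor, Cd52 a surface protein of leukocytes and Syk a kinase of immune receptors. Cd74 correlated at 0.87 with H2-Aa and 0.74 with H2-Ab1 over the 12 arrays. These were 0.93 and 0.41 within the 6 osteoblast arrays, and 0.16 and 0.43 within the 6 endothelial arrays.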

How the data were processed

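RNA of 12 samples was measured on 12 arrays. The authors deposited log2 values of 34760 probe sets, made with the Bioconductor package affy per the submitters' processing notes (version, summary and probe set definition not given in the sources used here). Their normalization was kept. Amplification from 5000 cells can distort proportions of transcripts, and differences near an array's floor are understated.

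The platform annotation gave 1 symbol to 21640 probe sets, several to 1321 and no symbol to 11799. For 21553 the symbol was brought up to date through a RefSeq table of GRCm38.p6. The brightest probe set of each gene was used (19937 genes). A gene was tested if it exceeded its array's 40th percentile in at least 3 of 12 arrays (14217 genes, 22714 probe sets). The 12 arrays entered 1 limma fit (lmFit and eBayes, version 3.58.1, R 4.3.3) with a mean for each of the 4 groups and 5 contrasts; p-values are two-sided, adjusted by Benjamini-Hochberg over all genes tested, with a threshold of 0.05. H2-K1/H2-D1, whose probe sets carry several symbols, was tested in the same fit over all 22714 probe sets. The steps were tested on simulated data. The number of arrays limits the precision.

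The members, the 7 pathway lists, the 10 marker lists and the tests were chosen with earlier results of these data known, so none of them is independent of the data. Beside the members, up to 4 genes with the smallest p were eligible to be named from each pathway list in each contrast, with the markers of highest mean, the sorted surface markers and fixed partners of the members such as Ciita and Tap2; the text names some of these. Genes most like Tap1 and Cd74 were ranked by Pearson correlation. Summed marker levels are the log2 of summed linear values. Samples sharing a replicate number did not deviate together (correlations of their deviations from -0.080 to 0.074), so the numbers were not used as pairs. There were 24 alternatives, given below.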

Additional observations from a re-analysis of the deposited data

How the results depend on the processing

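There were 24 alternatives. The values were normalized by quantiles or centred on medians; the filter was dropped or set at the 60th percentile; probe sets of a gene were averaged, or all entered the fit; trend and robust estimation, array weights or a replicate block were used; only the groups compared were fitted; a call required at least a 2-fold change; and each of 12 arrays, or replicate 3 of both osteoblast groups, was left out. Over 45 results for single readings they gave 1071 values: 1060 kept their side of the threshold, 10 lost a call, 1 gained one and 0 reversed a called direction; 54 values of uncalled results changed sign. The 10 losses were all of H2-Ab1, endothelial cells against osteoblasts without tumor, where the count of readings past the threshold was 2 and became 1 with no filter (adjusted p of H2-Ab1 0.0504), with all probe sets in the fit (0.0606), with only the groups compared (0.0791) and with replicate 3 of both osteoblast groups left out (0.0819), and ranged from 1 to 3 when single arrays were left out, 3 being reached without osteoblast replicate 2 of tumor-free mice. The cause was not tested, except that fewer or more features tested and fewer arrays are part of these alternatives. The counts in the other comparisons, 2 for endothelial cells against osteoblasts with tumor and 0 in each tumor comparison, were the same in all alternatives.

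The replicate number as a block changed no call of a reading, and the count in tumor-free mice stayed at 2; H2-Ab1 there had an adjusted p of 0.0281. Signals near the arrays' 40th percentile, as of H2-Aa and Cd74 in endothelial cells, limit how large a fold change the arrays can show.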
